A study of Rattus norvegicus with 18 samples.

Results

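Neonatal rat cardiomyocytes were compared after 24 h in medium diluted with unconditioned hESC medium and at time zero. The samples were chosen by their source label: 3 carried the label for 24 h of unconditioned medium and 6 the label of the time zero control, 9 of the 18 samples of the series. The study as a whole asked, by its title, whether stem cells secrete factors that make differentiated cardiomyocytes proliferate, and unconditioned medium is its control for conditioned medium. Ventricles of day 1 rats (n = 24) gave the cells, which were purified on Percoll gradients and plated at 250000 cells per 100 mm dish. All dishes spent 24 h in cardiac medium. Time zero dishes were extracted then, without treatment. In the unconditioned dishes the cardiac medium was diluted 50% with hESC medium that had not been conditioned by stem cells, with FBS held at 5% and HS at 10%, and RNA was taken 24 h later. No dish of the labels spent those 24 h in undiluted cardiac medium, so a change of medium and 24 h more in culture cannot be told apart. The labels give no strain, and they name no separate cell preparations, so the p-values rest on the spread from array to array alone, which may be technical.

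Cardiomyocytes are the contractile cells of the heart, and soon after birth they largely leave the cell cycle. Serum and growth factors act on cultured heart cells through receptor tyrosine kinases and the ERK cascade, which induces immediate early transcription factors and, in turn, phosphatases and Sprouty proteins that dampen the same cascade. Bone morphogenetic proteins act through SMAD proteins, and the Id genes, whose products hold basic helix-loop-helix factors away from DNA, are among their best known targets. Cultures of ventricular cells also carry fibroblasts, smooth muscle cells, endothelial cells and leukocytes, which lay down matrix or carry out functions of their own.

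RNA had been hybridised to 1-colour CodeLink arrays of 2 designs. Tests used the larger design, with 2 unconditioned arrays (replicates 2 and 3) and 4 time zero arrays (replicates 3 to 6), in a limma fit that shared the spread over all 12 arrays of that design. The smaller design held 1 unconditioned and 2 time zero arrays and served for direction only. Intensities below are scaled to a common array median. Log2 changes are unconditioned over time zero, ± SE, after subtraction of the median over all probes (0.19), and the adjusted p tests the change before that subtraction. A call is an adjusted p under 0.05 (Benjamini-Hochberg, over 23694 tested probes), and "rose" and "fell" are used only of calls. Low values were raised to a floor of 4.78 before the logarithm.

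Not all arrays were alike. Time zero replicates 4 and 5 had a ratio of upper to lower quartile of intensity of 22.5 and 22.4, and unconditioned 48 h replicate 2 had 25.7, against 38.7 to 47.8 on the other 9 arrays. After scaling, strongly expressed genes lay lower on these arrays. All tests were therefore repeated without these 3, where the median over all probes was -0.05. Values are with 12 arrays unless stated, list medians are given both ways, and the value of a named gene without the 3 arrays is given where its call differed or its change differed by over 1.5 times. The cells matched their label: 11 of 13 cardiomyocyte markers were measured and all 11 were tested, with the troponin T gene Tnnt2 at 32655, 23266, 16076 and 26279.8 at time zero and 36251 and 26046 after unconditioned medium. The summed intensity of these markers ran from 168008 to 348471 at time zero and from 323594 to 347943 in unconditioned medium. Myh6, the main adult cardiac myosin heavy chain of rodents, had no probe assigned to it alone.

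After 24 h in unconditioned medium 115 of 9953 genes were called (1.16%), 106 higher (1.07%) and 9 lower (0.0904%). The genes that rose were led by Cdkn2b, Adtrp and Pdlim4, and those that fell by Igfbp5, Mtrex and Id1. Among probes, 193 of 23694 were called (0.815%), 175 higher (0.739%) and 18 lower (0.076%), so that 90.7% of calls were higher, and 65 of these probes had no gene symbol. This lean toward increases varied with the scaling: quantile normalization gave 434 higher and 110 lower, cyclic loess 560 and 219, and leaving out the 3 arrays 408 and 231. Without the 3 arrays, 227 of 9860 genes were called higher (2.3%) and 97 lower (0.984%), and all 106 genes that had risen and 8 of the 9 that had fallen were called again, all but Drd5, a dopamine receptor gene (-3.10 ± 0.65, adjusted p = 0.043, then -2.42 (adjusted p = 0.12)). The change differed by over 1.5 times between both fits for 7 of the 115 genes, and none of the 115 took the other sign. Both fits share the 2 unconditioned arrays, so the kept signs are no independent check. Many calls were lost when 1 unconditioned array was left out, also where the size of the change held. Without unconditioned replicate 3, which leaves 1 array that is assumed to vary like the other groups, 25 probes were called (11 higher, 14 lower), 13 of them among the 193. Without unconditioned replicate 2 there were 106 (67 and 39, with 59 of the 193). Leaving out time zero replicate 5 gave 125 and leaving out replicate 6 gave 326.

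**Figure D1:**
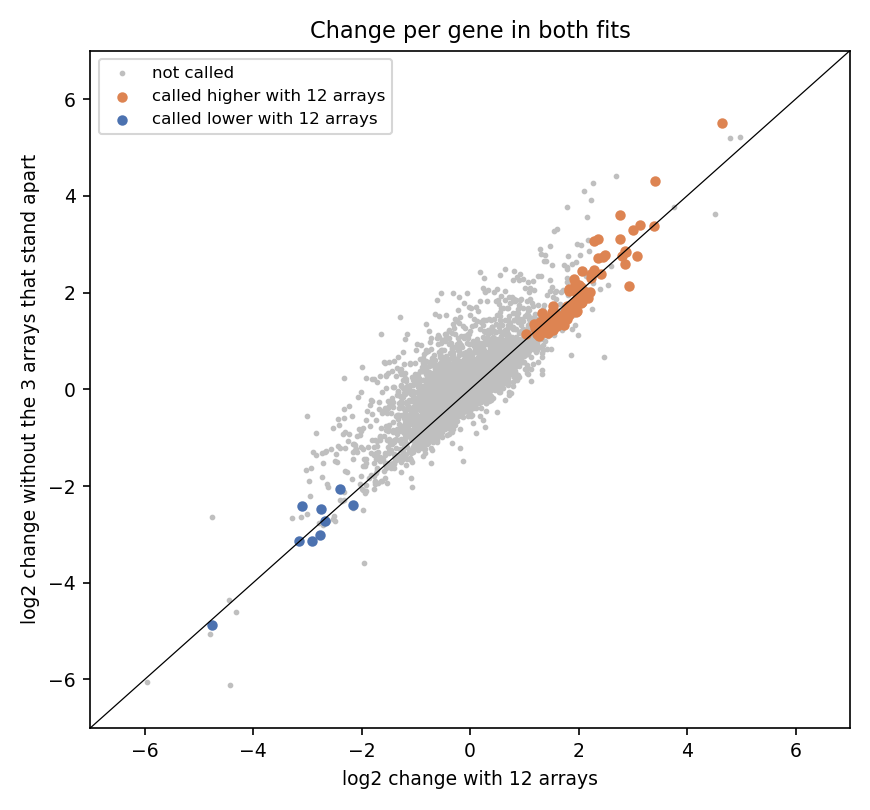
Log2 change per gene (unconditioned 24 h over time zero, relative to the median of all probes) with 12 arrays on the x axis and without the 3 arrays that stood apart on the y axis, 1 point a gene. Orange points are the 106 genes called higher and blue points the 9 called lower with 12 arrays, and the line marks equal values: all 115 called genes keep their side, with a median distance of 0.17 (log2) from equal values, and 7 of them lie over 1.5 times away, Adtrp farthest, at 3.40 and 4.31.

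**Figure D2:**
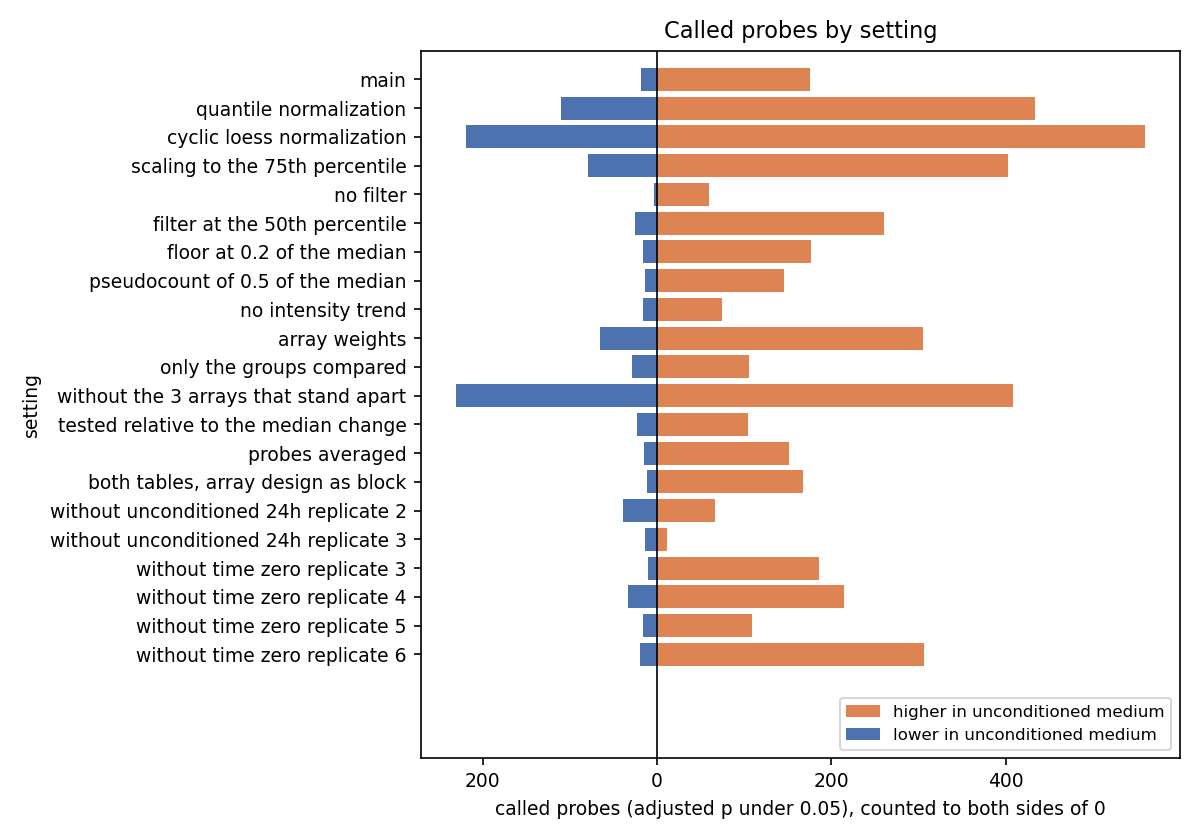
Number of called probes (x axis) under each setting (y axis), with bars to the right for probes higher and to the left for probes lower in unconditioned medium than at time zero, both counted from 0. The counts run from 25 probes without unconditioned 24 h replicate 3 to 779 with cyclic loess normalization, with 193 in the setting used here, marked main.

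Of 48 named genes that were called, 6 stayed called under all alternatives that tested them (20 alternatives of scaling, filter, model and arrays were run). Of these 1 fell and 5 rose. Id1, an inhibitor of basic helix-loop-helix factors and a target of bone morphogenetic proteins, had intensities of 3133, 1598, 1496 and 2637 on time zero replicates 3, 4, 5 and 6, and of 246 and 410.5 on unconditioned replicates 2 and 3. All 4 time zero arrays lay above both unconditioned arrays, and Id1 fell by 2.92 ± 0.34 on the log2 scale (adjusted p = 7.4e-04). Pdlim4, a PDZ and LIM domain protein bound to actin filaments, stood at 134, 60.1, 106 and 92.7 at time zero. In unconditioned medium Pdlim4 stood at 1197 and 1055, an increase of 3.39 ± 0.33 (adjusted p = 7.4e-05). Both arrays lay far above every time zero array. Tnnt1, the troponin T of slow skeletal muscle, rose from 184, 138, 152 and 246 to 1332 and 1628, by 2.88 ± 0.34 (adjusted p = 4.0e-04). Atp12a, the catalytic subunit of the non-gastric proton-potassium ATPase, rose from 186, 107, 185 and 233 to 1182 and 1571, by 2.81 ± 0.35 (adjusted p = 4.2e-04). Aldh3a1, an aldehyde dehydrogenase of the antioxidant response, rose from 124, 95.5, 193 and 109 to 851 and 1123, by 2.77 ± 0.34 (adjusted p = 4.0e-04). In each of these 3 the time zero arrays stayed below both unconditioned arrays. Vcan, which encodes the matrix proteoglycan versican, rose from 276, 169, 196 and 184 to 1096 and 1066, by 2.23 ± 0.31 (adjusted p = 8.4e-04), and its second probe rose too (1.78 ± 0.36, adjusted p = 0.012). Another 2 genes, Fgl2 and Ntrk2, were called without any single array but not when the probes of a gene were averaged. Fgl2, a fibrinogen-like protein with prothrombinase activity, rose by 3.13 ± 0.38 (adjusted p = 4.0e-04), while its second probe stood at 0.10 ± 1.39. Ntrk2, the receptor of brain-derived neurotrophic factor, fell by 2.77 ± 0.38 on the log2 scale (adjusted p = 0.0027), with 3 further tested probes between -2.38 and -1.02, none of them called.

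**Figure D3:**
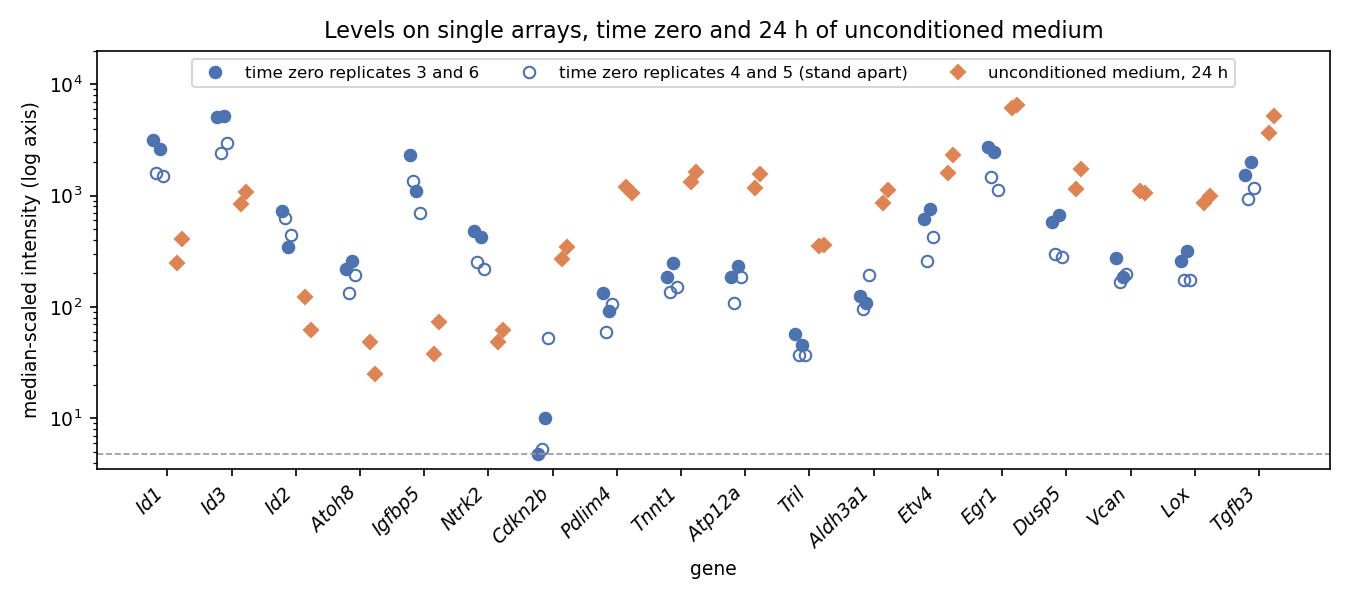
Median-scaled intensity (log axis) of 18 genes on single arrays, with filled circles for time zero replicates 3 and 6, open circles for time zero replicates 4 and 5, which stood apart, and diamonds for the 2 unconditioned 24 h arrays. The dashed line is the floor of 4.78; the 6 genes on the left fell and the other 12 rose, and in none of the 18 do the groups overlap.

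The fall of Id1 was shared by relatives. Of 23 tested genes of TGF-beta and BMP signalling, 3 rose and 3 fell, beside 1.07% and 0.0904% of all genes. The median change was 0.28 (0.20 without the 3 arrays) beside 0.07 over all 9953 genes (0.02 without them). All 3 that fell were Id genes, and in 5 of 10 tested targets, Id1, Id2, Id3, Id4 and Smad7, both unconditioned arrays lay below all time zero arrays, beside 1.92% of all genes. Id3 stood at 5079, 2417, 2968 and 5232 at time zero and at 837 and 1077 in unconditioned medium and fell by 2.16 ± 0.37 on the log2 scale (adjusted p = 0.014), and its second probe fell by 1.78 ± 0.33 on the log2 scale (adjusted p = 0.027). Id2 went from 725, 633, 445 and 346 to 122 and 62.7 and fell by 2.74 ± 0.54 on the log2 scale (adjusted p = 0.031). Id4 stood at -1.93 (adjusted p = 0.25) and Smad7, the inhibitory SMAD that is itself induced by the pathway, at -1.19 (0.23) with 12 arrays. Both were called lower without the 3 arrays, Id4 at -2.13 (0.037) and Smad7 at -1.35 (0.0014). Atoh8, a basic helix-loop-helix factor outside the list, fell too, from 219, 134, 195 and 259.5 to 48.9 and 25.0, by 2.68 ± 0.42 on the log2 scale (adjusted p = 0.0060). The ligands lay on the other side: all 8 that were tested were above the median change, with 2 called. Inhba, the beta A subunit of activin, rose by 1.97 ± 0.33 (adjusted p = 0.0034) and Tgfb3, a TGF-beta ligand, by 1.50 ± 0.35 (adjusted p = 0.028), with a second probe of Tgfb3 at 1.44 (adjusted p = 0.067). Ltbp2, a matrix protein of the latent TGF-beta binding family, rose by 1.48 (adjusted p = 0.029). Bmp2 (1.14, adjusted p = 0.21) and Bmp4 (0.73, 0.54), both BMP ligands, and the receptors of the list were not called. The call of Id1 held without unconditioned replicate 3 (-3.23, adjusted p = 0.0080), while Id2 (-2.20, adjusted p = 0.66), Id3 (-2.28, adjusted p = 0.17), Atoh8 (-2.14, adjusted p = 0.23), Inhba (1.86, adjusted p = 0.15) and Tgfb3 (1.31, adjusted p = 0.59) kept their direction but not their call. Id2 and Id3 also lost it without unconditioned replicate 2 (-3.30, adjusted p = 0.081 and -2.04 (adjusted p = 0.20)), Id2 without time zero replicate 3 (-2.67, adjusted p = 0.096) or 5 (-2.76, adjusted p = 0.084), and Tgfb3 when tested relative to the median change (adjusted p = 0.072).

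The promoters of the 3 Id genes are shown because these genes fell together. The sequences are the 150 bases before the annotated gene start in RefSeq on the rat assembly GRCr8, read along the gene, with a TATAAA motif in capitals where the strand read or its reverse complement held one.
Id1: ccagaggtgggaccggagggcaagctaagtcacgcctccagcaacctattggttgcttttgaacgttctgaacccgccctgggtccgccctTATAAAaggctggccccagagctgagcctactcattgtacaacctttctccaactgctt
Id2: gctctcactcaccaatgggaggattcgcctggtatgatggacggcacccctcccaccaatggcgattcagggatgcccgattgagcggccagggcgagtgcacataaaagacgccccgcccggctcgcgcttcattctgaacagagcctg
Id3: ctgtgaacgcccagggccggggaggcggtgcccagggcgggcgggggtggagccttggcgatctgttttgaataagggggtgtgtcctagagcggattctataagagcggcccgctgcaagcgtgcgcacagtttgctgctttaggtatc
Id1 lies at chr3:161671414-161671563 on the plus strand, Id2 at chr6:47470996-47471145 on the minus strand and Id3 at chr5:153656141-153656290 on the plus strand. Over the 250 bases before the start, searched on both strands, 1 of the 4 promoters of Id1, Id2, Id3 and Atoh8 held TATAAA, against 12.9% of 33469 promoters. None of the 4 held GGCGCC, a core often found in SMAD-bound elements of BMP targets, which 8.69% of all promoters held. These matches describe the letters of the window only.

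Some genes of the ERK cascade's transcriptional response rose. Of 22 tested immediate early and ERK feedback genes 5 rose and none fell, beside 1.07% of all genes that rose, with a median of 0.70 (0.81 without the 3 arrays, where 8 were called higher), and in 11 of the 22 both unconditioned arrays lay above all time zero arrays, against 15.2% of all genes. Most of the 5 came from the part of the list headed feedback, which also held Etv4, itself a transcription factor. Of the 9 tested genes of that part 4 rose, Etv4 among them, with a median of 1.31. In the part headed factors 1 of 13 rose, with a median of 0.38. Etv4, an ETS factor transcribed downstream of ERK, stood at 613, 259, 429 and 763 at time zero and at 1611 and 2323 in unconditioned medium, and rose by 1.83 ± 0.39 (adjusted p = 0.017). Phlda1, a pleckstrin homology-like protein induced by growth factors, rose by 1.61 ± 0.34 (adjusted p = 0.014). Dusp5, a nuclear phosphatase that inactivates ERK, stood at 582, 301, 280.1 and 665 and then at 1144 and 1723, and rose by 1.54 ± 0.38 (adjusted p = 0.039), with a second probe at 0.86 ± 0.33 (adjusted p = 0.20). Spry4, a Sprouty inhibitor of the cascade, rose by 1.26 (adjusted p = 0.048), while Spry1 (1.31, 0.084) and Spry2 (1.15, 0.067) were called only without the 3 arrays. Among the factors, Egr1, a zinc finger factor of the serum response, went from 2742, 1456, 1129 and 2489.8 to 6138 and 6466 and rose by 1.60 ± 0.37 (adjusted p = 0.026). A second, much dimmer Egr1 probe stood at -1.15 ± 1.30. Partners of this response outside the list rose with less secure sizes. Nab2, a corepressor of EGR factors, rose by 3.07 ± 0.73 (adjusted p = 0.044) from time zero arrays of which replicates 4 and 5 lay at the floor. Its size and call depended on that floor, with 1.64 (adjusted p = 0.12) at a floor of 0.2 of the median and 1.01 (adjusted p = 0.073) with a pseudocount, and it was called in 9 of 18 alternatives. Arc, an immediate early gene best known from neurons, rose by 2.76 ± 0.68 (adjusted p = 0.049), or 3.60 (adjusted p = 0.0015) without the 3 arrays, and stood at 2.11 (adjusted p = 0.062) with the higher floor. Other immediate early genes were not called, with Fos at -0.09 ± 0.34 (adjusted p = 0.95), Junb at 0.27 (adjusted p = 0.72) and Dusp1 at -0.17 (0.99). Not all factors were as flat as Fos and Junb. The 13 factors ran from -0.25 to 1.78, the highest being a gene that was not called, with 9 above and 4 below the median change. In 4 of the 13 both unconditioned arrays lay above all time zero arrays, beside 15.2% of all genes. Without the 3 arrays 2 of the 13 were called higher. Errfi1, a feedback inhibitor of the EGF receptor, rose by 1.62 ± 0.33 (adjusted p = 0.010). These calls were among the less stable ones. With unconditioned replicate 3 left out, Etv4 stood at 1.62 (adjusted p = 0.46), Phlda1 at 1.69 (adjusted p = 0.23), Dusp5 at 1.30 (adjusted p = 0.69), Egr1 at 1.62 (adjusted p = 0.40) and Errfi1 at 1.43 (adjusted p = 0.36). Egr1, Dusp5, Nab2 and Arc were not called when tested relative to the median change (adjusted p from 0.068 to 0.097), and Arc lost its call in 3 of the 4 fits without 1 time zero array.

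The promoter of Dusp5 is shown because it is the called feedback gene whose window held the serum response element core, the CArG box, in the printed stretch. Capitals mark 2 adjoining CArG boxes in the 150 bases before the RefSeq start, chr1:262543624-262543773 on the plus strand of GRCr8.
Dusp5: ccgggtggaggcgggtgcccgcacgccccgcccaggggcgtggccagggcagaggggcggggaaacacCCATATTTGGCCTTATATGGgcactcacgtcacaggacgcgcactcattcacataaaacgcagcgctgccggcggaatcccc
A CArG box stood in the 250 bases before the start of 501 of 33469 promoters (1.5%, both strands searched). Of the 5 called genes of this list 4 had a promoter in the RefSeq table, and 2 of these, Dusp5 and Egr1, held one. None of 7 matched promoters of the called matrix genes held one.

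Among regulators of the cell cycle the largest called increase was in an inhibitor. Cdkn2b encodes p15, which blocks the kinases of the cyclin D complexes. It lay at the floor on time zero replicate 3 and at 5.33, 52.5 and 9.98 on replicates 4, 5 and 6, against 269.8 and 344 in unconditioned medium. It rose by 4.64 ± 0.66 (adjusted p = 0.0014), or 5.51 (adjusted p = 2.7e-05) without the 3 arrays, a size that depends on the floor (a floor of 0.2 of the median gave 3.46). Of 16 tested inhibitors and p53 targets it was the only one called, beside 1.16% of all genes, and the median was -0.11 (-0.15 without the 3 arrays). Cdkn1a, which encodes the p21 inhibitor, stood at 0.15 ± 0.32 (adjusted p = 0.77) and turned to -0.30 with quantile normalization, and its second probe stood at -0.40 (adjusted p = 0.87). Of 29 DNA replication and G1/S genes 1 rose, Mcm5, a subunit of the replicative helicase (1.28 ± 0.33, adjusted p = 0.046), beside 1.07% of all genes. Its second probe was not called (0.88, adjusted p = 0.25), and the median of the list was 0.43 (0.39 without the 3 arrays). All 9 origin and helicase genes were above the median change. None of 40 tested genes of G2/M and mitosis was called in either direction with 12 arrays. Their median was 0.64 (0.52 without the 3 arrays), 37 of the 40 were above the median change, beside 5682 of all 9953 genes, and in 26 both unconditioned arrays lay above all time zero arrays, beside 15.2% of all genes. Kif23, a kinesin of the central spindle, stood at 1.20 ± 0.33 (adjusted p = 0.062) and was called without the 3 arrays (1.17, adjusted p = 0.010), as was Pbk, a mitotic kinase (1.08 ± 0.35, adjusted p = 0.12, then 0.84 (adjusted p = 0.040)). The preset cell cycle genes Cdk1 (0.92 ± 0.42, adjusted p = 0.34), Ccnb1 (0.79 ± 0.34, adjusted p = 0.28), Mki67 (0.61 ± 0.33, adjusted p = 0.41) and Ccnd1 (0.78 ± 0.36, adjusted p = 0.32) were not called. Neither Cdkn2b (4.52, adjusted p = 0.067) nor Mcm5 (1.80, adjusted p = 0.12) passed without unconditioned replicate 3, and Mcm5 also failed without unconditioned replicate 2 (0.76, adjusted p = 0.54) and when tested relative to the median change (adjusted p = 0.13).

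The growth factor axis held the largest decrease among called genes. Igfbp5, a secreted protein that binds insulin-like growth factors, stood at 2302, 1358, 692 and 1099 at time zero and at 37.6 and 72.7 in unconditioned medium. It fell by 4.76 ± 0.87 on the log2 scale (adjusted p = 0.015), and every time zero array was at least at 692. It was the only call among 23 tested genes of the IGF, EGF and FGF axis, beside 1.16% of all genes (median 0.07, 0.24 without the 3 arrays). Igf1 stood at 1.22 (adjusted p = 0.62), Igf1r, its receptor, at 0.26 (0.68) and Nrg1, the neuregulin ligand of the ErbB receptors, at 0.36 (0.72). The size of the Igfbp5 change held with single arrays left out. Its call held without time zero replicate 4, 5 or 6, but not without time zero replicate 3 or either unconditioned array. Igfbp5 stood at -5.17 and -4.35 without unconditioned replicates 3 and 2, which leaves 1 array in that group. Without time zero replicate 3 it stood at -4.55 (adjusted p = 0.061). No member of the Wnt, Notch and Hippo list was called with 12 arrays, beside 1.16% of all genes (23 tested, median 0.03, -0.03 without the 3 arrays, where 1 was called lower). Yap1 stood at -2.64 ± 0.89 (adjusted p = 0.31), or -1.95 without the 3 arrays, with 1 unconditioned array at the floor.

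Matrix genes formed the largest group of calls in any list. Of 39 tested fibroblast and matrix genes 8 rose and none fell, against 1.07% of all genes that rose, with a median of 0.61 (0.47 without the 3 arrays, where 10 were called higher), and in 21 both unconditioned arrays lay above all time zero arrays, beside 15.2% of all genes. Beside Vcan these were enzymes and structural proteins. Lox, the lysyl oxidase that cross-links collagen and elastin, stood at 260.2, 175, 173 and 319 at time zero and at 864 and 1001 in unconditioned medium, and rose by 1.87 ± 0.32 (adjusted p = 0.0034). Its relative Loxl2 rose by 1.88 (adjusted p = 0.040). Col18a1, the basement membrane collagen that releases endostatin, rose from 421, 203, 209 and 407 to 1191 and 1637, by 2.07 ± 0.37 (adjusted p = 0.0051). Fbln2, a glycoprotein of elastic fibres and basement membranes, rose by 1.75 ± 0.33 (adjusted p = 0.0060). Timp3, an inhibitor of metalloproteinases (2.08, adjusted p = 0.015), Col5a1 (1.32, 0.046) and Col8a1 (1.37, 0.048), collagens of fibrils and of vessel walls, rose as well. All 12 tested collagens were above the median change, and Col1a1, the main fibrillar collagen, stood at 0.52 ± 0.34 (adjusted p = 0.51), with a second probe at 1.16 (adjusted p = 0.10). Eln, which encodes elastin, stood at 0.61 ± 0.37 (adjusted p = 0.48). Of 9 fibroblast markers 8 were measured and 4 tested, and none was called. Their summed intensity ran from 2330 to 4160 at time zero (4036 to 4160 on replicates 3 and 6) and from 4975 to 5810 in unconditioned medium. Col1a1, Col1a2 and Postn made up most of that sum. The 4 dim markers that did not pass the filter gave no such picture: Tcf21, a factor of cardiac fibroblasts, read 7.03, 25.0, 36.8 and 11.8 at time zero and 5.96 and 5.84 in unconditioned medium, and Dcn, the proteoglycan decorin, read at most 50.9 at time zero and 7.40 in unconditioned medium. Lum and Pdgfra reached at most 16.7 and 11.9 on any of the 6 arrays. The part of cell numbers in these changes was not tested, and in bulk RNA more cells of a type and more RNA per cell cannot be told apart. Vcan stayed called without unconditioned replicate 3 (2.31, adjusted p = 0.035), while Lox (1.82, adjusted p = 0.14), Col18a1 (1.90, adjusted p = 0.22) and Fbln2 (1.63, adjusted p = 0.23) did not.

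Vascular genes gave a mixed picture. Of 18 tested endothelial genes 3 rose and none fell, beside 1.07% of all genes that rose, with a median of 0.73 (0.65 without the 3 arrays). Tek, the angiopoietin receptor Tie2, stood at 92.4, 45.2, 72.1 and 92.4 at time zero and at 256 and 319 in unconditioned medium, and rose by 1.79 ± 0.35 (adjusted p = 0.0079). Esam, an adhesion molecule of endothelial junctions, rose by 1.39 ± 0.32 (adjusted p = 0.024). Thbd, the anticoagulant receptor thrombomodulin, rose by 1.83 ± 0.30 (adjusted p = 0.0027), while its second probe stood at -0.09 ± 0.32 and the smaller design gave -0.03. Kdr, the main receptor of vascular endothelial growth factor, lay on the other side, at 530.3, 510.2, 252 and 452 and then 127 and 161. Its change of -1.74 ± 0.36 (adjusted p = 0.050) missed the threshold and passed it without the 3 arrays (-1.73, adjusted p = 0.0061). The 6 measured endothelial markers summed to 950 to 1431 at time zero (1403 to 1431 on replicates 3 and 6) and 1407 to 1835 in unconditioned medium. Of 12 tested smooth muscle and pericyte genes 1 rose (1.07% of all genes did), Cspg4, the NG2 proteoglycan of pericytes (1.95 ± 0.41, adjusted p = 0.016), with a median of 0.40 with and without the 3 arrays. Without them 3 of these 12 genes were called higher, beside 2.3% of all genes. Acta2 and Tagln, contractile proteins of smooth muscle that cultured fibroblasts and immature cardiomyocytes also make, stood at 1.05 (adjusted p = 0.11) and 0.99 (0.096). The 7 markers of these cells summed to 17844 to 31727 at time zero and to 48752 to 55644 in unconditioned medium, without overlap. Acta2 and Tagln made up most of that sum. Of the others, Cnn1, Myh11 and Cspg4 lay higher on both unconditioned arrays than on all time zero arrays, beside 15.2% of all genes. For Pdgfrb the groups overlapped (137 to 240 at time zero, 215 and 237 in unconditioned medium), and Rgs5 read at most 17.8. The part of these cells in the changes of matrix and vascular genes was not tested. Without unconditioned replicate 3 the adjusted p was 0.24 for Tek, 0.69 for Esam, 0.11 for Thbd and 0.42 for Cspg4, at changes of 1.69, 1.00, 1.78 and 1.75.

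**Figure D4:**
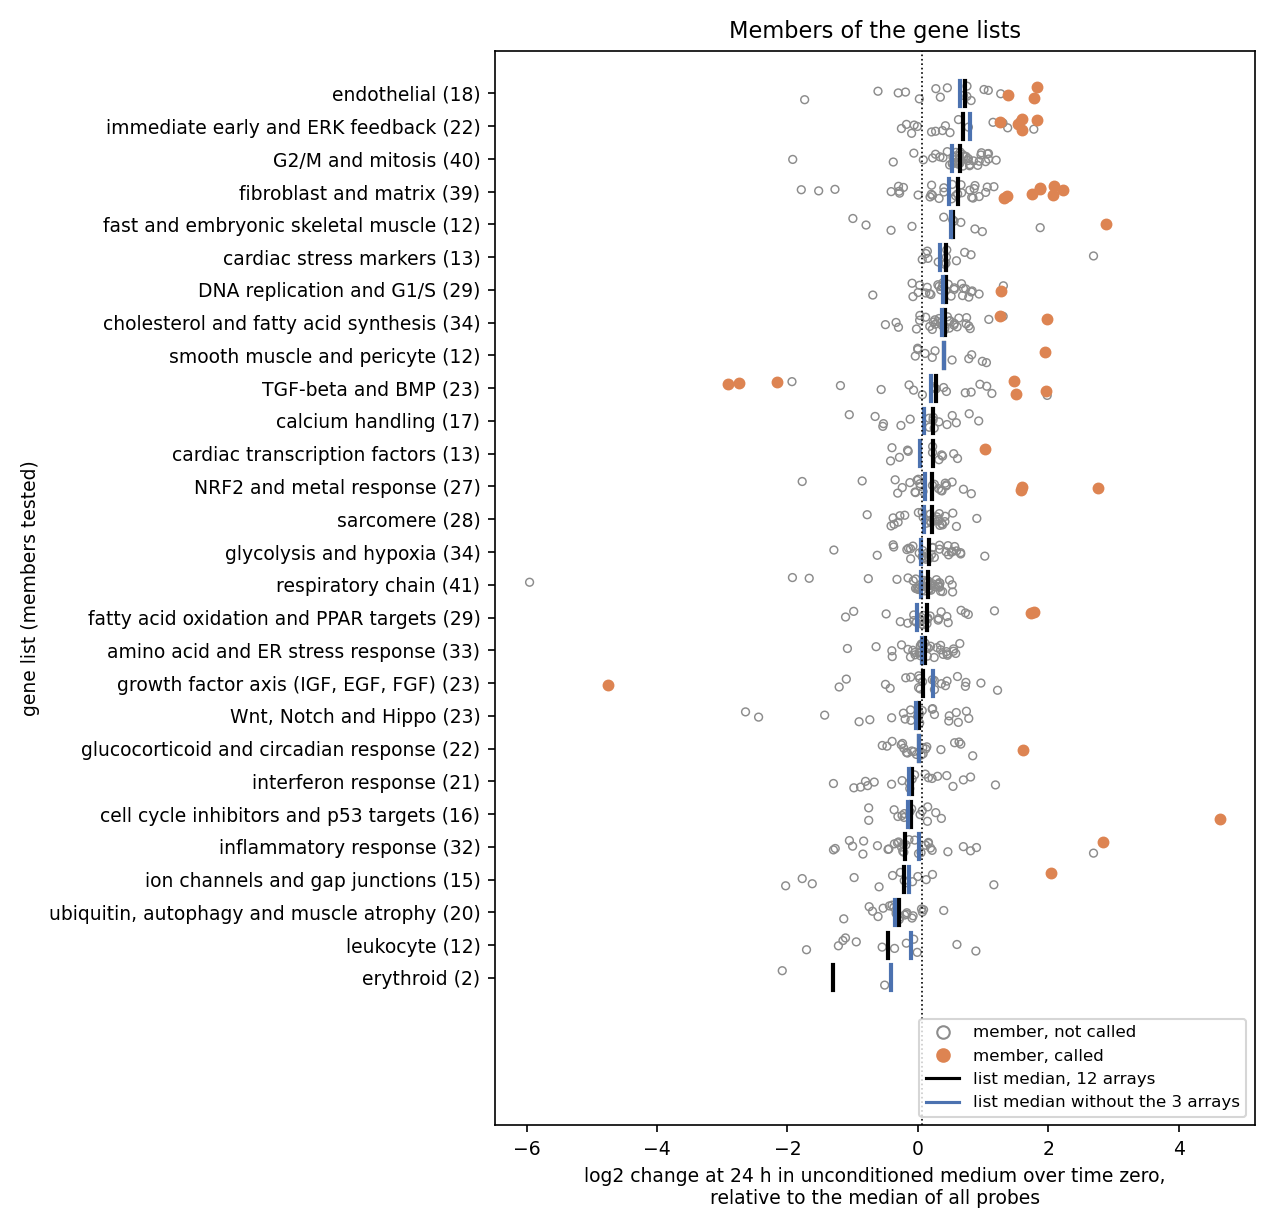
Log2 change of every tested member of 28 gene lists (x axis, relative to the median of all probes; the dotted line is the median of all genes, 0.07), ordered by list median. Filled points are called members, black bars list medians with 12 arrays and blue bars medians without the 3 arrays that stood apart; the endothelial list has the highest median, 0.73, and the matrix list the most called members, 8.

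None of 28 tested sarcomere genes and none of 17 calcium handling genes passed the test in either direction with 12 arrays, which at 1.16% of all genes does not set these lists apart. The medians were 0.22 and 0.23 (0.09 and 0.10 without the 3 arrays). Without the 3 arrays Tcap, the titin cap protein of the Z-disc, was called lower (-1.01, adjusted p = 0.010, against -0.78 and 0.64 with 12 arrays) and Camk2b, a calmodulin-dependent kinase, higher (1.29, adjusted p = 0.011, against 0.79 and 0.50). The sarcomere median took the other sign, -0.12, with quantile normalization. Myh7, the slow cardiac myosin heavy chain, stood at 29052, 15514, 15406 and 28253 at time zero and at 30779.5 and 42462 in unconditioned medium (0.59 ± 0.36, adjusted p = 0.49). Tpm1, a tropomyosin, stood at 0.91 ± 0.34 (adjusted p = 0.19) on its brighter probe and at -0.20 (adjusted p = 0.99) on another, and Sln, sarcolipin, which regulates the calcium pump, at 0.93 ± 0.35 (adjusted p = 0.20). The pump's own gene, Atp2a2, showed opposite probes. The brighter one stood at 0.59 ± 0.33 (adjusted p = 0.43), the dimmer one fell by 1.93 ± 0.38 on the log2 scale (adjusted p = 0.034), and the smaller design gave -2.11. Of 13 cardiac stress markers none was called (median 0.43, 0.34 without the 3 arrays, 0.01 with quantile normalization). All 13 were above the median change, beside 5682 of all 9953 genes. In 8 of them both unconditioned arrays lay above all time zero arrays, beside 15.2% of all genes. The natriuretic peptide genes Nppa (0.42 ± 0.32, adjusted p = 0.58) and Nppb (0.43 ± 0.34, adjusted p = 0.59) were among these 8. For the skeletal alpha-actin gene Acta1 (0.31 ± 0.34, adjusted p = 0.68) the groups overlapped. Nppa and Acta1 turned negative with quantile normalization (-0.03 and -0.20). Il33, an alarmin cytokine on this list, stood at 2.70 ± 0.78 (adjusted p = 0.11). It rose without the 3 arrays (4.40, adjusted p = 8.1e-04), since time zero replicate 4 read 124 while replicate 6 lay at the floor, and its second probe stood at 0.51 (adjusted p = 0.66). Hspb7, a small heat shock protein of heart muscle, stood at 0.72 ± 0.33 (adjusted p = 0.31), with a second probe at 0.08.

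Among other muscle genes single members rose, where 1.07% of all genes rose, and 1 call in so short a list does not set it apart. Of 12 genes of fast and embryonic skeletal muscle only Tnnt1 was called (median 0.55, 0.51 without the 3 arrays). Myh3, the embryonic myosin heavy chain, stood at -0.41 ± 0.39 (adjusted p = 0.88), and Myl11, a fast myosin light chain, at 1.88 (adjusted p = 0.28). Of 13 cardiac transcription factors 1 rose, Smyd1, a methyltransferase of muscle needed for sarcomere assembly (1.03 ± 0.28, adjusted p = 0.046, median of the list 0.23, 0.03 without the 3 arrays). Nkx2-5 (-0.42, adjusted p = 0.86), Gata4 (0.32, 0.70) and Tbx5 (0.38, 0.61), core factors of the heart, were not called. Of 15 ion channel and gap junction genes 1 rose, Gja5, the connexin 40 of atrial and conducting tissue, from 293, 145, 204 and 277 to 960.3 and 1133, by 2.05 ± 0.36 (adjusted p = 0.0042). Its other 2 probes stood at 0.30 ± 0.30 and -0.37 ± 0.53, and the list median was -0.21 (-0.13 without the 3 arrays). None of 20 ubiquitin, autophagy and atrophy genes was called with 12 arrays, beside 1.16% of all genes. The median was -0.28 (-0.35 without the 3 arrays, where 1 was called lower). Fbxo32, the muscle ubiquitin ligase atrogin-1, stood at -1.14 ± 0.43 (adjusted p = 0.47), and Foxo3, a factor that drives it, at -0.75 ± 0.29 (adjusted p = 0.57), with other probes at 0.39 and -1.05. Smyd1 (0.99, adjusted p = 0.63) and Gja5 (1.99, adjusted p = 0.15) were not called without unconditioned replicate 3. Smyd1 also failed without unconditioned replicate 2 (1.06, adjusted p = 0.20), without time zero replicate 5 (1.05, adjusted p = 0.10) and relative to the median change (adjusted p = 0.15).

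None of 41 tested respiratory chain genes and none of 34 glycolysis and hypoxia genes was called, with medians of 0.15 and 0.17 (0.05 for both without the 3 arrays). The respiratory chain median took the other sign, -0.13, with quantile normalization. All 6 regulators of the respiratory chain were below the median change, beside 4271 of all 9953 genes. The one with the smallest p was Perm1, a muscle factor that works with PGC-1 and the estrogen-related receptors. It stood at 627, 1034, 391 and 732 at time zero and at 243 and 229 in unconditioned medium, all below time zero. Its change of -1.67 ± 0.37 (adjusted p = 0.077) was called without the 3 arrays (-1.48, adjusted p = 0.0088). Cox8b, a muscle subunit of cytochrome oxidase, lay at the floor on unconditioned replicate 2 and at 6039 on replicate 3 and was not called (-5.95 ± 1.56, adjusted p = 0.12). Pfkp, a phosphofructokinase (1.03 ± 0.36, adjusted p = 0.17), and Pkm, pyruvate kinase (0.66 ± 0.36, adjusted p = 0.43), were the glycolytic genes with the smallest p. Without the 3 arrays Pfkp was called higher (0.77, adjusted p = 0.037). Other probes of Pkm stood at 0.22 and -0.24.

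Lipid genes held a few calls. Of 29 fatty acid oxidation and PPAR target genes 2 rose, both PPAR targets, beside 1.07% of all genes. Acot1, a cytosolic acyl-CoA thioesterase, stood at 354, 232, 149 and 279.8 at time zero and at 852 and 1065 in unconditioned medium, and rose by 1.79 ± 0.33 (adjusted p = 0.0060). Angptl4, a secreted inhibitor of lipoprotein lipase, rose by 1.74 ± 0.41 (adjusted p = 0.029). None of the 15 oxidation enzymes was called, and the list median was 0.14 (-0.01 without the 3 arrays). Of 34 cholesterol and fatty acid genes 2 rose, against the same 1.07%, with a median of 0.41 (0.37 without the 3 arrays). Scd2, a stearoyl-CoA desaturase, went from 672, 394, 463 and 721 to 2149.9 and 2824 and rose by 1.99 ± 0.33 (adjusted p = 0.0027), and its dimmer probe, at means of 63.0 at time zero and 215 in unconditioned medium, was not called (adjusted p = 0.12). Abcg1, a sterol exporter induced by liver X receptors, rose by 1.26 ± 0.31 (adjusted p = 0.030). None of the 16 sterol synthesis genes was called, and Hmgcs1 had no probe assigned to it alone. Without unconditioned replicate 3 none of the 4 was called, with adjusted p of 0.22 for Acot1, 0.58 for Angptl4, 0.14 for Scd2 and 0.33 for Abcg1. Relative to the median change, Angptl4 (adjusted p = 0.070) and Abcg1 (adjusted p = 0.091) were not called.

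Among detoxifying enzymes 2 genes rose beside Aldh3a1. Of 27 NRF2 and metal response genes 3 rose and none fell, beside 1.07% of all genes that rose, with a median of 0.23 (0.11 without the 3 arrays). Akr1b8, an aldo-keto reductase, stood at 338, 177, 274 and 338 at time zero and at 948 and 939.9 in unconditioned medium, and rose by 1.60 ± 0.31 (adjusted p = 0.0080). Gsta2, a glutathione transferase, rose by 1.59 ± 0.36 (adjusted p = 0.024). Classical NRF2 targets were not called, with Nqo1 at 0.82 (adjusted p = 0.17), Hmox1 at -0.31 (0.94) and Gclc at -0.03 (0.91). None of 33 amino acid and ER stress response genes was called, beside 1.16% of all genes, with a median of 0.11 (0.06 without the 3 arrays). Creld2, an ER stress protein, stood at 0.64 ± 0.32 (adjusted p = 0.35), and Gdf15, a stress-induced cytokine, at 0.44 ± 0.29 (adjusted p = 0.49). Aldh3a1 stayed called without unconditioned replicate 3 (2.63, adjusted p = 0.021) and Akr1b8 (1.67, adjusted p = 0.18) and Gsta2 (1.44, adjusted p = 0.52) did not.

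Inflammatory and immune genes gave 1 call with 12 arrays. Tril, an accessory protein of Toll-like receptor 4, stood at 57.3, 36.7, 37.2 and 45.1 at time zero and at 353 and 357 in unconditioned medium. It rose by 2.85 ± 0.50 (adjusted p = 0.0049), the only call among 32 tested inflammatory genes, beside 1.16% of all genes (median -0.20, 0.01 without the 3 arrays). Without the 3 arrays 3 of 31 inflammatory genes were called higher and 2 lower, beside 2.3% and 0.984% of all genes. None of 21 interferon response genes was called with 12 arrays, beside 1.16% of all genes (median -0.09, -0.13 without the 3 arrays, where 1 was called lower). Irf7, a factor of the interferon response, stood at -1.29 ± 0.43 (adjusted p = 0.37) and Ifitm3, an antiviral membrane protein, at 0.70 ± 0.36 (adjusted p = 0.39). None of 12 leukocyte genes was called either, beside the same 1.16% (median -0.45, -0.11 without the 3 arrays). Cd14, the co-receptor of Toll-like receptor 4, stood at 0.89 ± 0.31 (adjusted p = 0.14), and Cd74, the MHC class II invariant chain, at -1.71 ± 0.66 (adjusted p = 0.45). The leukocyte markers summed to 970 to 1549 at time zero and 1106 to 1212 in unconditioned medium, with Lyz2 at or below the floor on all 6 arrays. Of the erythroid list 2 genes were tested, Ahsp (-2.08 ± 0.86, adjusted p = 0.48) and Slc4a1 (-0.51 ± 0.58, adjusted p = 0.88), and neither was called (median -1.29, -0.41 without the 3 arrays). Slc4a1 turned to 0.46 without the 3 arrays and stood at 0.67 on a second probe, and Ahsp stood at -1.29 without them. Of 22 glucocorticoid and circadian genes Errfi1 was the only one called with 12 arrays, beside 1.16% of all genes. The median was 0.01 (0.02 without the 3 arrays, where 1 was called higher and 2 lower). Tril was not called without unconditioned replicate 3 (2.90, adjusted p = 0.15) or 2 (2.79, adjusted p = 0.074).

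The remaining large changes lay outside the lists. Adtrp, a membrane protein that regulates tissue factor pathway inhibitor, stood between 4.34 and 40.3 at time zero and at 198 and 166 in unconditioned medium, and rose by 3.40 ± 0.62 (adjusted p = 0.0067), or 4.31 (adjusted p = 0.0016) without the 3 arrays. Entpd1, the ectonucleotidase CD39, rose from 54.1, 8.21, 25.7 and 67.2 to 224 and 293, by 2.93 ± 0.59 (adjusted p = 0.014), or 2.14 (adjusted p = 5.1e-04) without the 3 arrays. Vil1, the actin-bundling protein villin, rose from 64.5, 102, 42.6 and 57.7 to 346 and 449, by 2.45 ± 0.35 (adjusted p = 0.0010). Ankrd44, a regulatory subunit of protein phosphatase 6, rose by 2.48 ± 0.40 (adjusted p = 0.0027). Il17re, a receptor subunit for an IL-17 cytokine (3.01 ± 0.52, adjusted p = 0.0049), and Eva1a, a regulator of autophagy (2.86 ± 0.55, adjusted p = 0.0093), rose from levels that lay at the floor on 2 and 1 of the time zero arrays. With a floor of 0.2 of the median they stood at 1.84 and 2.09, with a pseudocount at 1.04 and 1.12, and neither was called with only the groups compared (adjusted p of 0.40 and 0.26). Mtrex, the RNA helicase of the nuclear exosome, stood at 57.3, 49.1, 106 and 166 and then at 7.95 and 14.3, close to the floor, and fell by 3.16 ± 0.54 on the log2 scale (adjusted p = 0.0099), or stood at -2.30 with the higher floor. Tdo2, which opens the ring of tryptophan, fell by 2.40 ± 0.43 on the log2 scale (adjusted p = 0.016). With too few called decreases to fill the naming rule, Dok4 (-2.61 ± 0.56, adjusted p = 0.054), Pik3ip1, an inhibitor of phosphoinositide 3-kinase (-1.77 ± 0.37, adjusted p = 0.056), Fam110c (-1.71 ± 0.36, adjusted p = 0.062) and Lrrn4cl (-3.12 ± 0.72, adjusted p = 0.072) had the next smallest p, and none was called with 12 arrays. Several of these calls needed both unconditioned arrays. Without replicate 3 the adjusted p was 0.15 for Adtrp, 0.31 for Entpd1, 0.067 for Vil1, 0.18 for Il17re, 0.23 for Eva1a, 0.076 for Mtrex and 0.34 for Tdo2. Without replicate 2 it was 0.10 for Adtrp, 0.090 for Entpd1, 0.081 for Eva1a, 0.056 for Ankrd44, 0.14 for Mtrex and 0.057 for Tdo2.

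The smaller design gave the same direction for most calls. Of 4613 genes tested on both designs 73.4% had the same sign of change. Of the called genes on both, 62 of 64 that rose (96.9%) and both that fell had it. There Id1 stood at -3.20, Id3 at -1.66, Cdkn2b at 2.48, Pdlim4 at 3.48, Aldh3a1 at 2.67, Vcan at 1.81 and Etv4 at 2.25. Gja5 stood at 0.64, against 2.05 on the larger design, and Thbd at -0.03, against 1.83. With 1 array against 2 these differences have no replicate check in unconditioned medium. The labels do not say whether both designs were hybridised with the same RNA, so the smaller design may not be an independent sample.

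To see where the 24 h unconditioned level differed from the groups most like it, it was set against conditioned medium at 24 h and unconditioned medium at 48 h in the same fit, where the time zero arrays enter the shared spread but not the difference. Between the media at 24 h 31 of 9953 genes were called (0.311%), and 7 of the 115 genes called against time zero were among them. Thbd was higher in conditioned than in unconditioned medium at 24 h, by 2.70 ± 0.35 (adjusted p = 0.0011), with 1764 and 1982 on the conditioned arrays. Mtrex was higher in conditioned medium as well, by 3.65 ± 0.62 (adjusted p = 0.014). Tril (-4.23 ± 0.58, adjusted p = 0.0023), Atp12a (-3.61 ± 0.41, adjusted p = 3.0e-04), Tnnt1 (-2.47 ± 0.40, adjusted p = 0.010), Prkag2, a regulatory subunit of the AMP-activated kinase (-3.29, adjusted p = 0.0012), and Septin4, a cytoskeletal GTPase (-2.06, 0.018), were lower in conditioned medium. On the conditioned arrays Tril read 9.35 and 38.7, Atp12a 113 and 111 and Tnnt1 273 and 261. For the other 108 called genes a difference between the media was not called. For Id1 that difference was 0.84 ± 0.40 (adjusted p = 0.93), for Cdkn2b 0.96 ± 0.76 (adjusted p = 1.00), for Vcan 0.80 ± 0.36 (adjusted p = 0.88), for Egr1 0.41 ± 0.43 (adjusted p = 1.00) and for Pdlim4 -1.12 ± 0.38 (adjusted p = 0.55), which with 2 arrays a group does not show equal levels. Between 24 h and 48 h in unconditioned medium no probe was called with limma. There 1234 of 23694 tested probes had an unadjusted p under 0.05, a level that chance alone gives to a share of 0.05. Of the 115 called genes 14 were at that level. The 115 genes had been chosen on the same 2 unconditioned 24 h arrays that enter both differences. Neither these 14 nor the 7 genes called between the media can therefore be read against a chance rate.

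**Figure D5:**
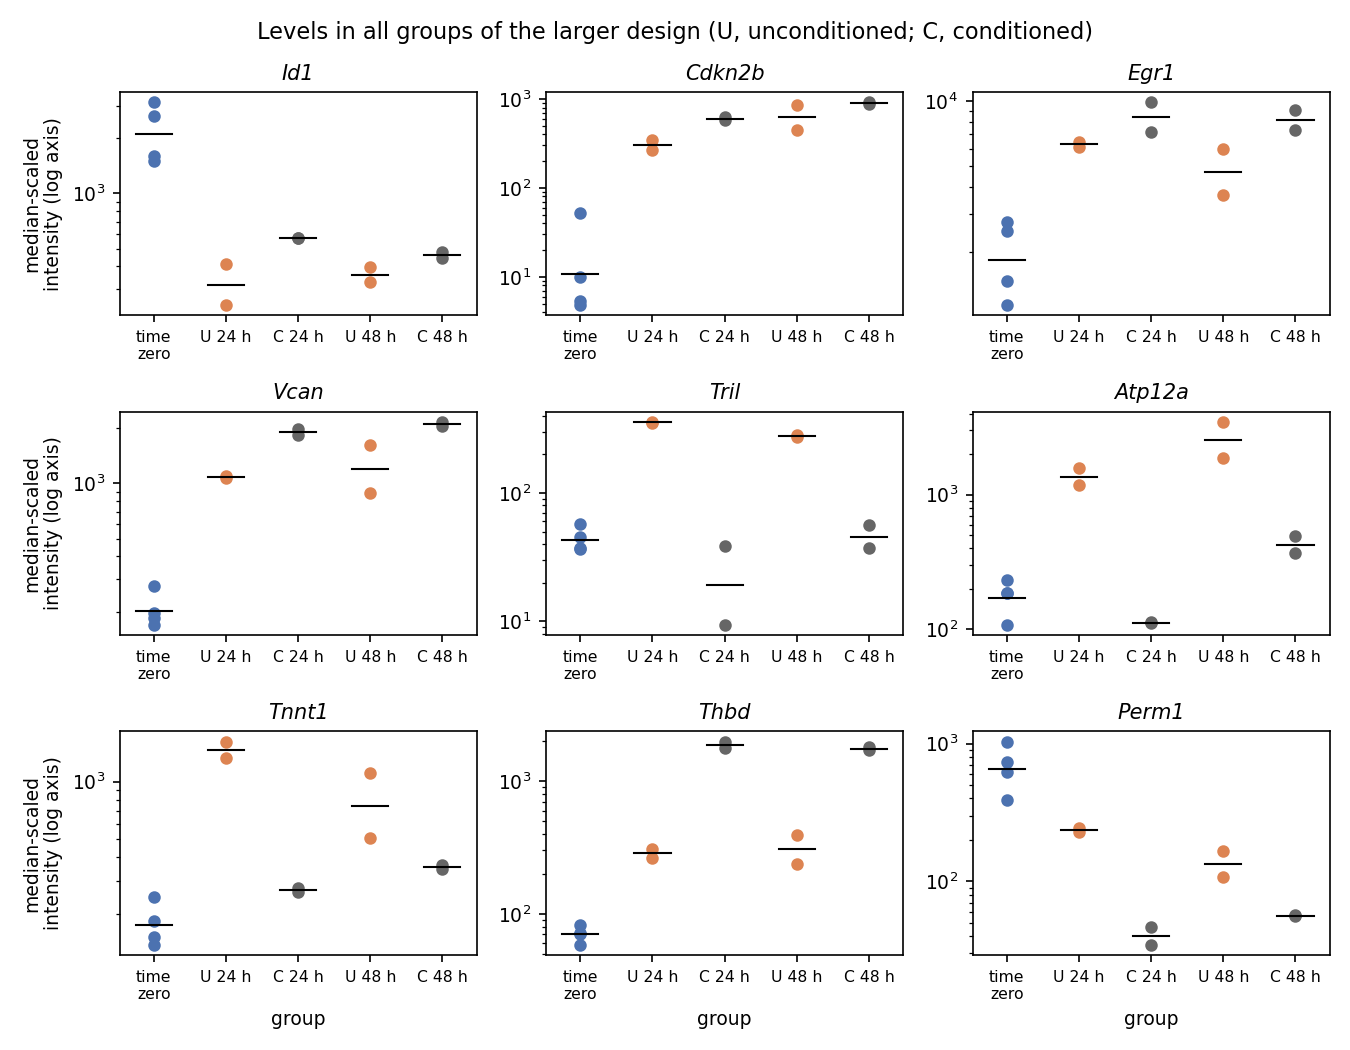
Median-scaled intensity (log axis) of 9 genes on every array of the larger design, by group (U, unconditioned; C, conditioned), with a bar at each group's mean of log values. Id1, Cdkn2b, Egr1 and Vcan lie on the same side of time zero in all treated groups, while Tril, Atp12a and Tnnt1 are higher in unconditioned than in conditioned medium at 24 h and Thbd is lower.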

How the data were processed

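The deposited values are linear intensity per probe of 1-colour CodeLink arrays, labelled with the iExpress kit per the labels' protocols. Scanner, image software, background correction, normalization and genome build are not given in the sources used here. Both value tables of the series were used: 12 arrays of the larger design with 33849 probes with values (16753 assigned to 1 gene, 165 to several, 16931 to none), and 6 arrays of the smaller design. Depth does not apply to arrays. Their small number, signals near the floor and the arrays that stood apart limit the precision. Array medians of the deposited intensities differed (70.3 to 144), so each array was scaled to the same median. After a floor at 0.05 of that median (4.78), log2 values were used, and a filter on mean level removed the dimmest probes (30th percentile). This left 23694 probes for 9953 genes. Genes are represented by the brightest tested probe assigned to them alone, and for genes named by the rule other tested probes are given where their call or, by over 1.5 times, their change differed.

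A limma fit (version 3.58.1, R 4.3.3) held all 12 arrays of the larger table, with moderated variances that follow intensity and 7 residual and 10.4 prior degrees of freedom, and the contrast was unconditioned 24 h minus time zero. The pipeline was tested on simulated data, with 200 of 23694 probes changed by 2-, 4- or 8-fold. It called 0 of the 200 at 2-fold, 103 (51.5%) at 4-fold and 162 (81%) at 8-fold, with 1, 6 and 8 false calls. A gene that changes about 2-fold would therefore mostly go without a call. The 28 gene lists (808 symbols), the preset genes and the rule for naming genes were chosen with earlier results of these data known. For each direction the rule took the 15 most changed of those called genes in which the 2 groups did not overlap and the direction was also called without the arrays that stood apart, and filled up by the smallest p where fewer passed. It also named up to 4 called members of each list, or up to 2 with the smallest p where none was called. Other genes with values are members of the lists, except Prkag2, Septin4 and those of the closing observations, which were chosen after their values were seen. Alternatives were quantile, loess and 75th percentile scaling, other filters and floors, a pseudocount, weights for arrays, a fit without the intensity trend, a fit of the compared groups only, no arrays that stood apart, a test relative to the median change, probes averaged, both tables with the design as a block, and each array left out. No pair of these arrays held identical values. Promoters come from RefSeq (GRCr8), matched by symbol. Probe sequences were not analysed here, so paralogs may share signal. For drawing, matplotlib 3.10.9 was used (Python 3.11.15).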

Additional observations from a re-analysis of the deposited data

Results flagged for a closer look

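In 5 of 89 named genes 1 time zero array lay far from the other 3, with a gap to its nearest neighbour, as a share of the range over the 4 arrays, of 0.899 for Arc, 0.881 for Drd5, 0.868 for Inhba, 0.899 for Ahsp and 0.917 for Slc4a1. Chance alone gives about 1 such gap in 20 groups, so 5 of 89 is near that rate. The array was replicate 4 for Arc (71.1 against 9.12 to 11.2), replicate 5 for Ahsp (189 against 28.7 to 34.7) and Slc4a1 (741 against 101 to 119), replicate 6 for Inhba (442 against 244 to 264) and replicate 3 for Drd5 (36.0 against 96.3 to 110.1). Inhba stayed called without time zero replicate 6.

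For 9 named genes the level at 24 h differed between the media, by limma's test of conditioned minus unconditioned medium with all 12 arrays. Conditioned medium was higher for Mtrex (3.65), Thbd (2.70) and Fam110c (2.46). It was lower for Myh3 (-4.92 ± 0.45, adjusted p = 4.6e-05), Tril (-4.23), Atp12a (-3.61), Perm1 (-2.56), Tnnt1 (-2.47) and Eln (-2.12, adjusted p = 0.044). Of these Myh3, Eln, Fam110c and Perm1 were not called between unconditioned medium and time zero with 12 arrays, with 902 the higher of the 2 unconditioned readings of Myh3 and 37.5 the higher of its conditioned ones.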

How the results depend on the processing

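The number of called probes (193, with 175 higher and 18 lower) rose to 544 (434 and 110) with quantile normalization, 779 (560 and 219) with cyclic loess, 482 (403 and 79) with scaling to the 75th percentile, 371 (305 and 66) with array weights and 639 (408 and 231) without the 3 arrays that stood apart, where 192 of the 193 were called again. It dropped to 64 (60 and 4) with no filter, 91 (75 higher) without the intensity trend and 127 (104 higher) when tested relative to the median change. With only the groups compared 106 were higher and 29 lower. Other filters, a floor of 0.2 of the median, a pseudocount, averaged probes and both tables together stayed within 1.5 times of 193. Leaving out 1 array gave 25 to 326 called probes, 11 to 306 higher and 10 to 39 lower. The cause of these differences was not tested. None of the 48 called genes that the rule named changed direction under the alternatives that tested it (20 were run, of which the one with both tables tested 24 of the 48). This is no independent check, since the alternatives reuse these arrays and the rule chose part of these genes for groups without overlap.

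Values of genes that were not called turned sign: Atp2a2 (-0.71 with averaged probes, -0.36 with both tables), Slc4a1 (0.069 with array weights, 0.46 without the 3 arrays, 0.042 with averaged probes, -0.87 to 0.23 with 1 array left out), Nppa (-0.026 with quantile normalization), Acta1 (-0.20 with it), Tnnt2 (-0.24 with it, -0.068 with loess, -0.13 to 0.48 with 1 array left out), Fos (0.0026 with averaged probes, -0.48 to 0.28 with 1 array left out) and Cdkn1a (-0.30 with quantile normalization, -0.087 with loess, -0.16 with averaged probes). No paired analysis was possible because the labels give no replicate numbers, and the numbers used here follow the order of the samples. With 2 arrays of unconditioned medium, a gene that was not called is not shown to be unchanged.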

Other observations

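Called genes outside the lists are given here singly, picked after their values were seen, with no list behind them and so no share of any pathway. Ptgs1, the constitutive cyclooxygenase, had a mean intensity of 245 at time zero and 1134 in unconditioned medium and rose by 2.01 ± 0.32 (adjusted p = 0.0027, limma). Ptgis, prostacyclin synthase, rose from 908 to 4499.8 on average, by 2.16 ± 0.37 (adjusted p = 0.0040). Ptgfr, the receptor of prostaglandin F, rose by 1.32 ± 0.34 (adjusted p = 0.045). In the smaller design Ptgis stood at 2.12 and Ptgfr at 1.38, while Ptgs1 stood at -0.01. Ptgs2, the inducible cyclooxygenase, stood at 0.70 (adjusted p = 0.33).

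A further 7 called genes were picked in the same way. Krt8, a keratin of simple epithelia, rose by 2.13 ± 0.35 (adjusted p = 0.0032), Mical2, an oxidase that depolymerises actin, by 1.90 ± 0.36 (adjusted p = 0.0064), and Fhl3, a LIM protein, by 1.68 ± 0.40 (adjusted p = 0.030). Tes, a LIM protein of focal adhesions, rose by 1.33 ± 0.31 (adjusted p = 0.023), and Cotl1, an actin-binding protein, by 1.22 ± 0.31 (adjusted p = 0.037). Plaur, the urokinase receptor (1.53 ± 0.34, adjusted p = 0.020), and Procr, the receptor of protein C (1.53 ± 0.37, adjusted p = 0.033), rose as well. All 7 were called again without the 3 arrays that stood apart. So were all 106 genes that had risen, which means this does not set the 7 apart.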
